A study of Mus musculus with 6 samples.

Results

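This account concerns 31 genes of macrophages and other myeloid cells, read in RNA of CD8 T cells that had been sorted from mouse tumours. The genes were given as a list, and each was represented by its brightest probe set, the set of short oligonucleotides on the array with the highest mean over all 6 arrays. All 31 were on the array and all 31 passed the filter on low signal, out of 12571 genes tested. Of the 31, 2 (Itgam and Adgre1) lay at or below the filter level on 1 array. The list serves as a reading of RNA from other cells in a sorted T cell sample. It was chosen with earlier results of these data known, so its shares set against all genes are descriptions and not independent evidence of the array-number pattern.

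Macrophages are tissue phagocytes that develop from monocytes or from embryonic precursors, and in tumours they are usually among the most abundant immune cells. Their identity depends on the ETS-family factor PU.1, encoded by Spi1, and their survival on the CSF-1 receptor, encoded by Csf1r. They take up debris and antibody-coated particles through scavenger, lectin and Fc receptors, digest it in lysosomes rich in cathepsins, and secrete complement C1q, apolipoprotein E and chemokines. CD8 T cells do not make most of these products, although several members of the list, among them Tyrobp, Fcer1g, Itgam, Ctsb, Ctss and Cd86, are also expressed by some lymphocytes or by tumour cells.

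The CD8 T cells came from MCA-205 tumours, a transplantable mouse fibrosarcoma, grown in male C57BL/6 mice whose Eomes gene carried a GFP reporter. Eomes encodes a T-box factor found in cytotoxic lymphocytes. Both fractions came from mice treated with 2 antibodies, with tumours taken on day 19 after implantation: anti-OX40, against a T cell costimulator, at 250 ug on day 12 and day 16, and anti-CTLA-4, against an inhibitor of T cell priming, at 200 ug on day 12, day 14 and day 16. GFP-positive cells (Eomes+) and GFP-negative cells (Eomes-) were sorted by flow cytometry and hybridised to 3 arrays each, and the titles number the arrays of each fraction 1 to 3. The labels speak of independent experiments but do not say which arrays shared one, how many mice stood behind an array, or the age of the mice; untreated mice were not analysed here. P-values therefore measure the spread between these arrays, which may in part be technical. In the tests of array number, the 2 arrays of a number are 1 of each fraction. Those p-values rest on how alike the fractions were across numbers. If arrays of the same number shared a source, no number was replicated.

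Array medians over all probe sets ran from 6.35 to 6.42 log2. Eomes itself was higher on every Eomes+ array, at 10.38, 9.86 and 8.38 log2 for numbers 1, 2 and 3, against 6.85, 6.89 and 5.42 in the Eomes- fraction. The T cell genes Cd3e and Cd8a read high on every array, between 11.78 and 12.93 and between 11.95 and 13.55 log2. Both were lowest on the arrays numbered 3. There Cd3e read 11.78 log2 in Eomes+ and 11.84 in Eomes- cells, and Cd8a 11.95 and 12.56. The 3' to 5' difference of the Gapdh control probe sets, a sign of RNA quality, was 1.88, 1.77 and 1.55 log2 in Eomes+ cells and 1.54, 1.07 and 1.11 in Eomes- cells. For the Actb control probe sets it was 0.08, 0.17 and 0.13 log2 in Eomes+ cells and -0.002, 0.05 and 0.11 in Eomes- cells.

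Promoter sequence was available in a RefSeq table (GRCm38.p6) for 21 of the 31 genes. It was not matched for Spi1, Csf1r, Adgre1, Cd14, Cd86, Msr1, C1qa, Tyrobp, Ctsb and Arg1. The 250 bases before each annotated start were searched on both strands for 6 short motifs, and a match is a description of letters, not of binding. The core of the PU.1 motif, GAGGAA, was found in 14 of 21 member genes, or 66.7%, against 25.9% of 27025 genes in the table. An extended core, GAGGAAGT, which contains it, was found in 2 of 21 (2.79% of all genes) and the ETS and IRF composite motif in 3 of 21 (2.68%). The C/EBP motif TTGCNNAA was found in 3 (10.8% of all genes), the AP-1 motif TGANTCA in 3 (7.82%) and the E-box CACGTG in 1 (6.86%). The promoters below are printed 5' to 3' on the gene's strand, with the PU.1 core, read on either strand, in capitals. Itgam, Mrc1, Fcgr1 and C1qb are shown as examples of members that carry the core and passed the test between array numbers. Csf3r is shown because it carries the core and did not pass, and Lyz2 because it differed strongly and holds no such letters in this window.
Itgam (chr7:128062390-128062639, plus strand): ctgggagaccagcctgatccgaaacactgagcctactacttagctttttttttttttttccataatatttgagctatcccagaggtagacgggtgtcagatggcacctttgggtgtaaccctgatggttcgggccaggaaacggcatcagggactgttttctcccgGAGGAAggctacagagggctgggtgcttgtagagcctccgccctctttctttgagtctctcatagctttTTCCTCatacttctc
Mrc1 (chr2:14229164-14229413, plus strand): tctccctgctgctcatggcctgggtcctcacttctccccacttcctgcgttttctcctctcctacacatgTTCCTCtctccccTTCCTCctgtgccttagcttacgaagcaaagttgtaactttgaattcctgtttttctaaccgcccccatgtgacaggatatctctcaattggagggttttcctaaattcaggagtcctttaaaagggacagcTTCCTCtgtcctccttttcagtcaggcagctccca
Fcgr1 (chr3:96293970-96294219, minus strand): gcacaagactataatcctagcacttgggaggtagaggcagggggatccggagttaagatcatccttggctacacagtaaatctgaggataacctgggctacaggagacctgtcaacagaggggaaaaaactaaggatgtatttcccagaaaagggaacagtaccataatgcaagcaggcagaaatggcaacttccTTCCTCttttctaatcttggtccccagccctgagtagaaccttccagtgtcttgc
C1qb (chr4:136886201-136886450, minus strand): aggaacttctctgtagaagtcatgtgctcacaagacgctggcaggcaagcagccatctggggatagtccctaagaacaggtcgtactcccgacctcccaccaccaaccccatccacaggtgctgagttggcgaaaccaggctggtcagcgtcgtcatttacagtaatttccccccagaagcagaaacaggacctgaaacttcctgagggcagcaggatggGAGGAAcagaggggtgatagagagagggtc
Csf3r (chr4:126024409-126024658, plus strand): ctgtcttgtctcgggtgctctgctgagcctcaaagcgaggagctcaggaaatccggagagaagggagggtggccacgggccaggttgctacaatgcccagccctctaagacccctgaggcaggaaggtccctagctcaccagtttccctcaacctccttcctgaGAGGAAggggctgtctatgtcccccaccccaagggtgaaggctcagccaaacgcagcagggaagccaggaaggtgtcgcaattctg
Lyz2 (chr10:117282273-117282522, minus strand): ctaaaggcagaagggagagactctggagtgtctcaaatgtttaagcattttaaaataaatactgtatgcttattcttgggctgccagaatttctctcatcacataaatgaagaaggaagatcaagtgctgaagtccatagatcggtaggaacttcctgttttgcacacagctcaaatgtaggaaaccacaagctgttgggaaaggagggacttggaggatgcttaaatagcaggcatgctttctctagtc

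Between array numbers 29 of the 31 genes passed the test, against 19.2% of all genes tested, and Cd86 and Csf3r did not. On the arrays numbered 3, the brightest probe sets of C1qa, Fcgr1, Ccl8 and Csf1r read between 7.93 and 9.30 times as high as on the arrays numbered 1, and arrays of both fractions showed this. Between Eomes+ and Eomes- cells no member passed the test, where 0.00% of all genes did. Eomes itself, 3.15 log2 higher in Eomes+ cells, did not pass it either, so the missing calls do not show equal levels. Averaged over the 31 genes, the Eomes+ arrays numbered 1, 2 and 3 read 8.46, 9.78 and 10.61 log2, and their Eomes- counterparts 8.13, 9.13 and 10.69. In whole-fraction RNA, more cells of a type and more RNA per cell cannot be told apart.

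**Figure D1:**
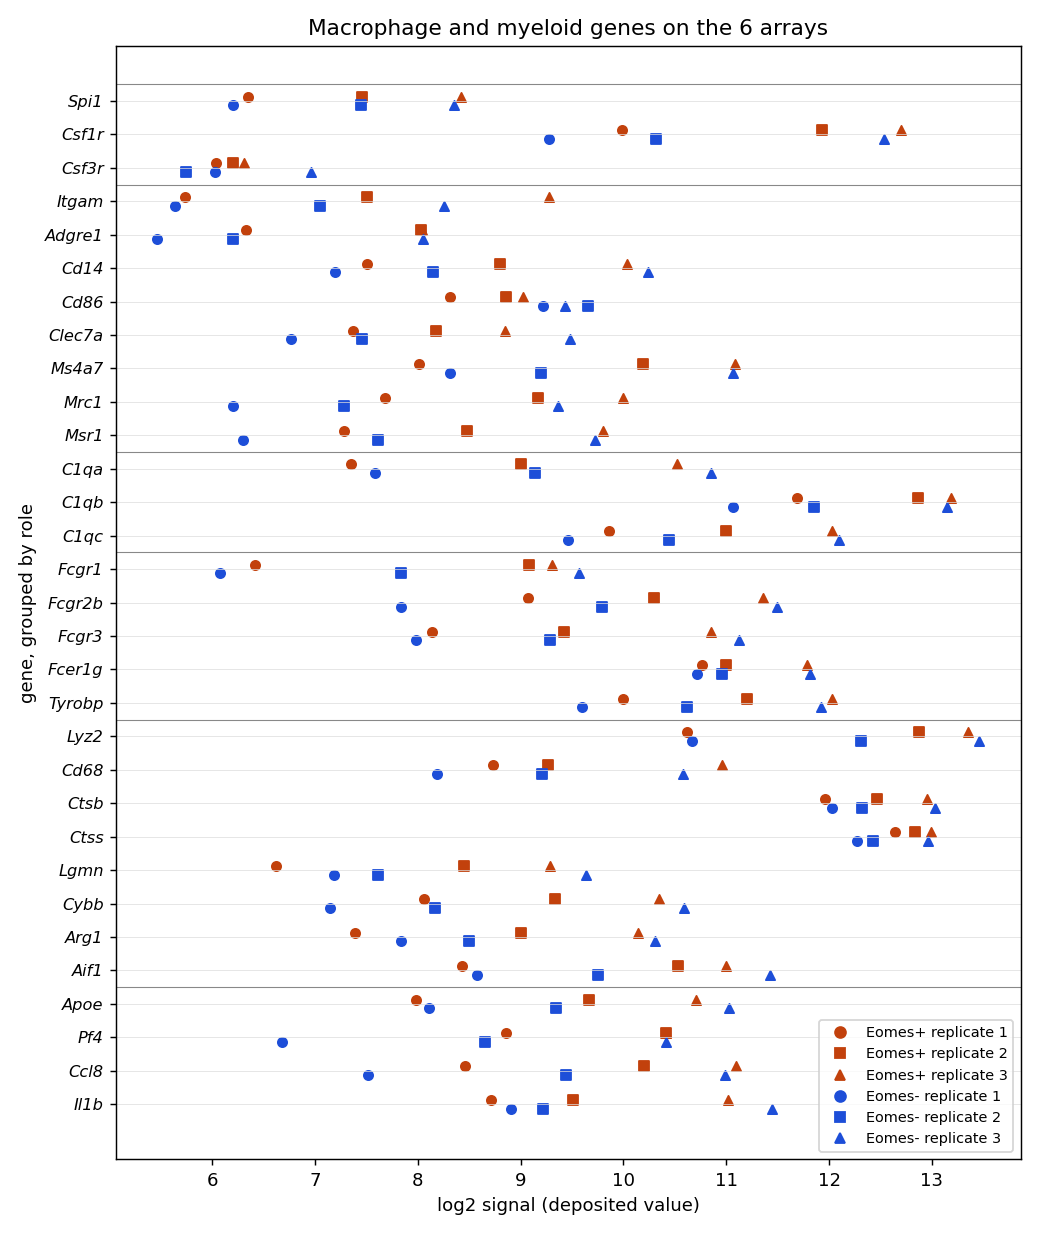
Log2 signal (x axis) of the 31 genes (y axis, grouped by role with lines between the groups) on the 6 arrays, Eomes+ in orange and Eomes- in blue, with the replicate number as the shape. For 29 of the 31 genes both triangles (number 3) lie to the right of all 4 other points, and Cd86 is the gene whose fractions separate.

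For 29 of 31 members, both arrays numbered 3 lay above all 4 other arrays, against 21.6% of all genes tested. The exceptions were Cd86 and Pf4. For 25 of 31, the arrays numbered 1 were in addition the lowest pair, against 10.6% of all genes. In an F test of the array number, with the fraction as a second term, 29 of 31 members passed at a limma adjusted p under 0.05, where 19.2% of all genes did. The same number, 29 of 31, were higher on number 3 than on number 1 at an adjusted p under 0.05 (adjusted p from 0.000958 to 0.0155), against 14.5% of all genes, and 0 of 31 were lower (10.6%). Numbers 3 and 1 were picked because they lay furthest apart in earlier results of these data. The p-values of that pair are therefore descriptive. All 31 of 31 were higher on number 3 than on number 1 (45.7% of all genes). The median difference was 2.65 log2 over the members and -0.06 over all genes. A difference of at least 2 log2 was seen in 25 of 31 members and in 6.51% of all genes. Numbers 3 and 2 differed in 21 of 31 members (6.32% of all genes, higher on 3), and numbers 2 and 1 in 2 of 31, Lyz2 and Ccl8 (0.358%, higher on 2). The median between numbers 2 and 1 was 1.18 log2 over the members, with 30 of 31 higher on number 2 (49.0% of all genes), and between numbers 3 and 2 it was 1.34 log2, with 30 of 31 higher on number 3 (49.7%). Within each fraction alone the median was 2.31 log2 between Eomes+ arrays 3 and 1 and 2.71 between the Eomes- arrays. No test within a fraction was possible, since each holds 1 array of each number.

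**Figure D2:**
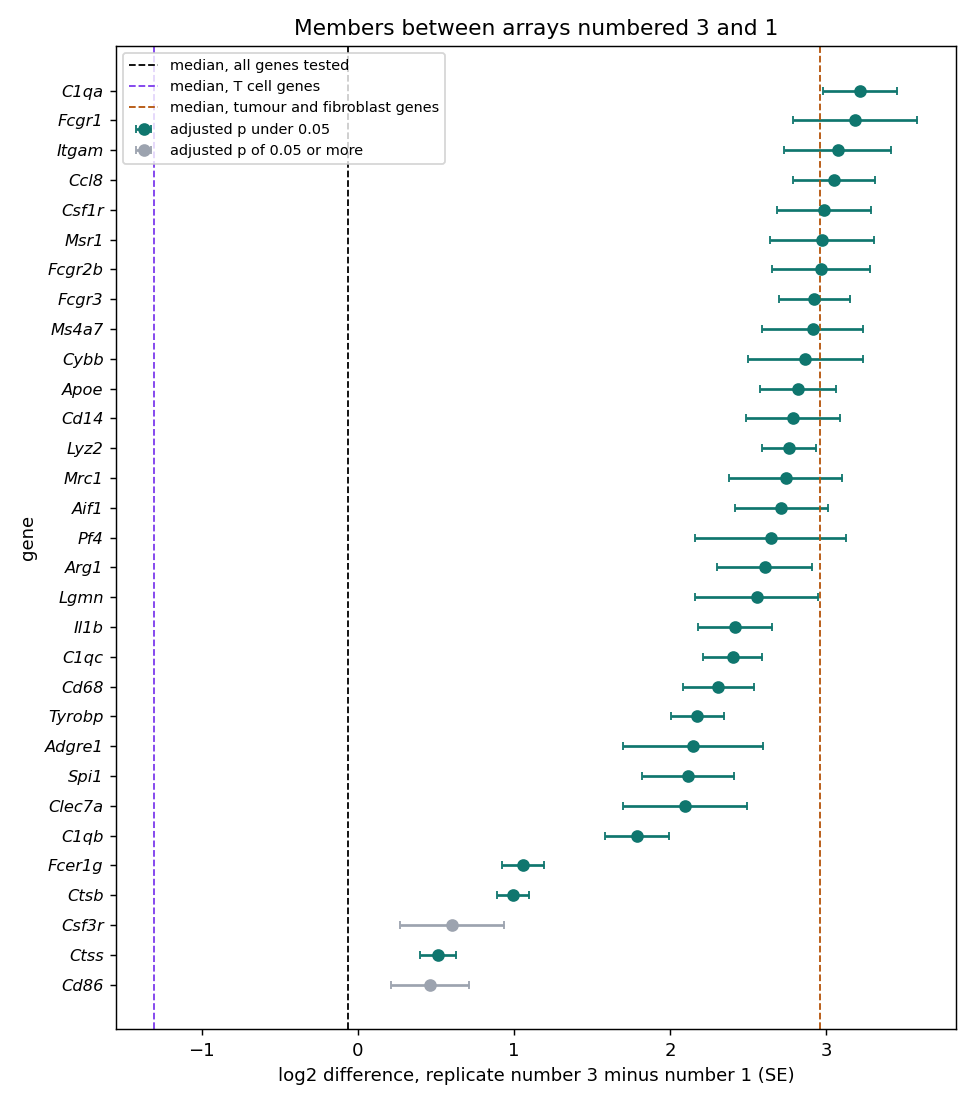
Log2 difference between arrays numbered 3 and 1 (x axis, with SE) for each member (y axis), filled green where the adjusted p is under 0.05. The members lie between 0.46 (Cd86) and 3.22 (C1qa), and dashed lines mark the median of all genes tested (-0.06), of T cell genes (-1.30) and of tumour and fibroblast genes (2.96).

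Among the lineage genes, Csf1r stood at 9.98, 11.93 and 12.70 log2 in Eomes+ samples 1, 2 and 3 and at 9.28, 10.32 and 12.53 in Eomes- cells. Spi1, which encodes PU.1, read 6.35, 7.46 and 8.42 log2 against 6.20, 7.45 and 8.36. For both genes the arrays numbered 3 were highest, and the fractions overlapped. The number 3 arrays exceeded the number 1 arrays 7.93-fold for Csf1r (2.99 log2, SE 0.30; limma adjusted p = 0.00116) and 4.33-fold for Spi1 (2.12 log2, SE 0.30; adjusted p = 0.00272). The other Csf1r probe sets differed by 3.20 and 1.67 log2. Csf3r, the G-CSF receptor of neutrophils and their precursors, was dim, at 6.04, 6.20 and 6.31 against 6.03, 5.75 and 6.96. Only Eomes- array 3 stood out, and Csf3r did not pass (0.60 log2, SE 0.33; adjusted p = 0.238).

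Complement C1q is assembled from the products of C1qa, C1qb and C1qc, 3 genes that macrophages express together, and it tags debris and immune complexes. C1qa read 7.35, 9.001 and 10.52 log2 in Eomes+ cells and 7.58, 9.14 and 10.85 in Eomes- cells. C1qc read 9.86, 10.99 and 12.03 against 9.46, 10.44 and 12.09. In both genes the pair of arrays with the same number lay closer together than any arrays of different number, and the fractions overlapped. C1qa had the largest number 3 over number 1 ratio of all members, 9.30-fold (3.22 log2, SE 0.24; limma adjusted p = 0.000958), and C1qc differed 5.29-fold (2.40 log2, SE 0.19; adjusted p = 0.000958). C1qb differed 3.45-fold at its brightest probe set (1.79 log2, SE 0.20; adjusted p = 0.00136). That set is of a design open to cross-hybridisation, and a gene-specific set of C1qb differed by 3.13 log2.

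The Fc receptor genes moved with array number to nearly the same extent. Fcgr1, the high-affinity receptor for IgG, read 6.42, 9.08 and 9.31 log2 on the Eomes+ arrays against 6.08, 7.83 and 9.57 in Eomes- cells, a 9.11-fold ratio of number 3 over number 1 (3.19 log2, SE 0.40; limma adjusted p = 0.00176). Its other probe set, above the filter on 5 arrays, differed by 0.70 log2, and the mean of both sets by 1.94 log2 (adjusted p = 0.00776). Fcgr3, the activating low-affinity receptor, read 8.13, 9.42 and 10.85 against 7.99, 9.29 and 11.12. The fractions of Fcgr3 were nearly superimposed at each number, while the numbers were clearly apart (2.93 log2, SE 0.23; adjusted p = 0.000958). Fcgr2b, the inhibitory receptor, differed by 2.97 log2 between numbers 3 and 1 (SE 0.31). The adaptor genes, whose products carry activating signals for these and other receptors and are shared with NK cells, differed less. Tyrobp, which encodes DAP12, differed by 2.18 log2 (SE 0.17; adjusted p = 0.000958), at 10.00, 11.20 and 12.03 against 9.60, 10.62 and 11.92. Fcer1g, the common gamma chain, differed by 1.06 log2 (SE 0.13; adjusted p = 0.00187), at 10.77, 10.997 and 11.78 against 10.72, 10.96 and 11.82.

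Surface receptor genes of macrophages differed between numbers 3 and 1 by 0.46 log2 (Cd86) to 3.08 log2 (Itgam). Itgam, the CD11b integrin chain, read 5.73, 7.51 and 9.28 log2 against 5.64, 7.05 and 8.25, a fitted difference of 3.08 log2 between numbers 3 and 1 (SE 0.34; limma adjusted p = 0.00131). Both number 1 arrays lay at the filter level of 5.71 to 5.72 log2, 1 of them below it, so no fold is given for Itgam. Adgre1, a surface marker of mouse macrophages, read 6.33, 8.03 and 8.04 against 5.47, 6.20 and 8.05 (2.15 log2, SE 0.45; adjusted p = 0.0122). Its call was lost without Eomes+ replicate 1, Eomes- replicate 1 or Eomes- replicate 3 (adjusted p = 0.0874, 0.0669 and 0.078). Cd14, the co-receptor for bacterial lipopolysaccharide, read 7.51, 8.80 and 10.04 against 7.19, 8.15 and 10.24, and differed by 2.79 log2 between numbers 3 and 1 (SE 0.30). The scavenger receptor gene Msr1 (2.97 log2), the MS4A family gene Ms4a7 (2.91) and the mannose receptor gene Mrc1 (2.74) passed as well. So did Clec7a, which encodes the fungal glucan receptor dectin-1 (2.10 log2, SE 0.40; adjusted p = 0.00826), although its call was lost without Eomes- replicate 1 or Eomes- replicate 3 (adjusted p = 0.0661 and 0.0532).

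All 8 lysosomal, oxidase and enzyme genes passed as higher on number 3 than on number 1 (14.5% of all genes), with very different sizes. Lyz2, which encodes the lysozyme of macrophages and granulocytes, read 10.61, 12.87 and 13.35 log2 in Eomes+ cells and 10.67, 12.31 and 13.46 in Eomes- cells. Here the arrays numbered 2 lay nearer to those numbered 3 than to those numbered 1. Numbers 3 and 2 still differed (0.81 log2, limma adjusted p = 0.0289). Lyz2 was 1 of the 2 members that also passed between numbers 2 and 1 (1.95 log2, adjusted p = 0.0259). Cybb, the catalytic subunit of the phagocyte NADPH oxidase, differed by 2.87 log2 between numbers 3 and 1 (SE 0.37), the calcium-binding protein gene Aif1 by 2.71 and the arginase gene Arg1 by 2.61. The legumain gene Lgmn differed by 2.56 log2 and the lysosomal glycoprotein gene Cd68 by 2.31. The cathepsin genes differed least. Ctsb read 11.96, 12.46 and 12.95 log2 against 12.03, 12.32 and 13.03 (1.00 log2, SE 0.10; adjusted p = 0.00116). Ctss read 12.65, 12.83 and 12.99 against 12.27, 12.42 and 12.96 (0.52 log2, SE 0.11; adjusted p = 0.0155). The Ctss call was lost in 5 settings: without Eomes+ replicate 1, Eomes- replicate 1 or Eomes- replicate 3 (adjusted p = 0.0502, 0.0923 and 0.148), without the fraction term (0.0763) and without the intensity trend (0.159).

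The 4 genes of secreted products all passed as higher on number 3 than on number 1 (14.5% of all genes). Apoe, the lipid-carrying apolipoprotein, read 7.98, 9.66 and 10.70 log2 in Eomes+ cells and 8.11, 9.35 and 11.03 in Eomes- cells, 7.07-fold higher on number 3 than on number 1. The monocyte-attracting chemokine gene Ccl8 read 8.46, 10.20 and 11.09 against 7.52, 9.44 and 10.99, an 8.29-fold ratio (3.05 log2, SE 0.26; limma adjusted p = 0.000958). For both genes the fractions overlapped and the arrays numbered 1 were lowest. Il1b, the inflammatory cytokine interleukin-1 beta, read 8.71, 9.51 and 11.02 against 8.91, 9.21 and 11.44. Its difference lay mainly between numbers 3 and 2 (1.87 log2, adjusted p = 0.0141) rather than 2 and 1 (0.55 log2, adjusted p = 0.387), although these differences were not tested against each other. Pf4, the platelet factor 4 chemokine that macrophages also make, read 8.86, 10.42 and 10.42 against 6.68, 8.65 and 10.41 (2.65 log2, SE 0.48; adjusted p = 0.00714), so that only Eomes- arrays 1 and 2 and Eomes+ array 1 were low. Without the fraction term the Pf4 call was lost (adjusted p = 0.055).

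The probe sets that were not the brightest gave the same direction with differing sizes. Of the 31 genes, 9 had several probe sets, with 20 further sets in all. Of these 17 passed the filter, and all 17 were higher on number 3 than on number 1, by 0.11 log2 (Cd86) to 3.20 log2 (Csf1r). They are not independent of the brightest sets, since they read the same RNA.

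Between the sorted fractions, 24 of 31 members had a higher mean in Eomes+ cells (47.4% of all genes), with a median difference of 0.25 log2 against -0.02 over all genes. No member passed (0 of 31; limma adjusted p = 1.00 for each), where 0.00% of all genes did, and 1 of 31 had an unadjusted p under 0.05 (3.25% of all genes). The 24 of 31 changed when single arrays were left out. Each such fit holds unequal array numbers in the fractions, so a shift also carries the differences between numbers. Without Eomes+ replicate 3, 9 of 31 had a higher mean in Eomes+ and the median was -0.24 log2, and without Eomes- replicate 1 it was 6 of 31 and -0.31. Without Eomes+ replicate 1 or Eomes- replicate 3 it was 30 of 31 each, with medians of 0.85 and 0.96 log2. The median SE of a member's fraction difference was 0.91 log2, against 0.30 for a number difference. Both come from the same 6 arrays, and the fit of the fraction alone has no term for the array number.

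**Figure D3:**
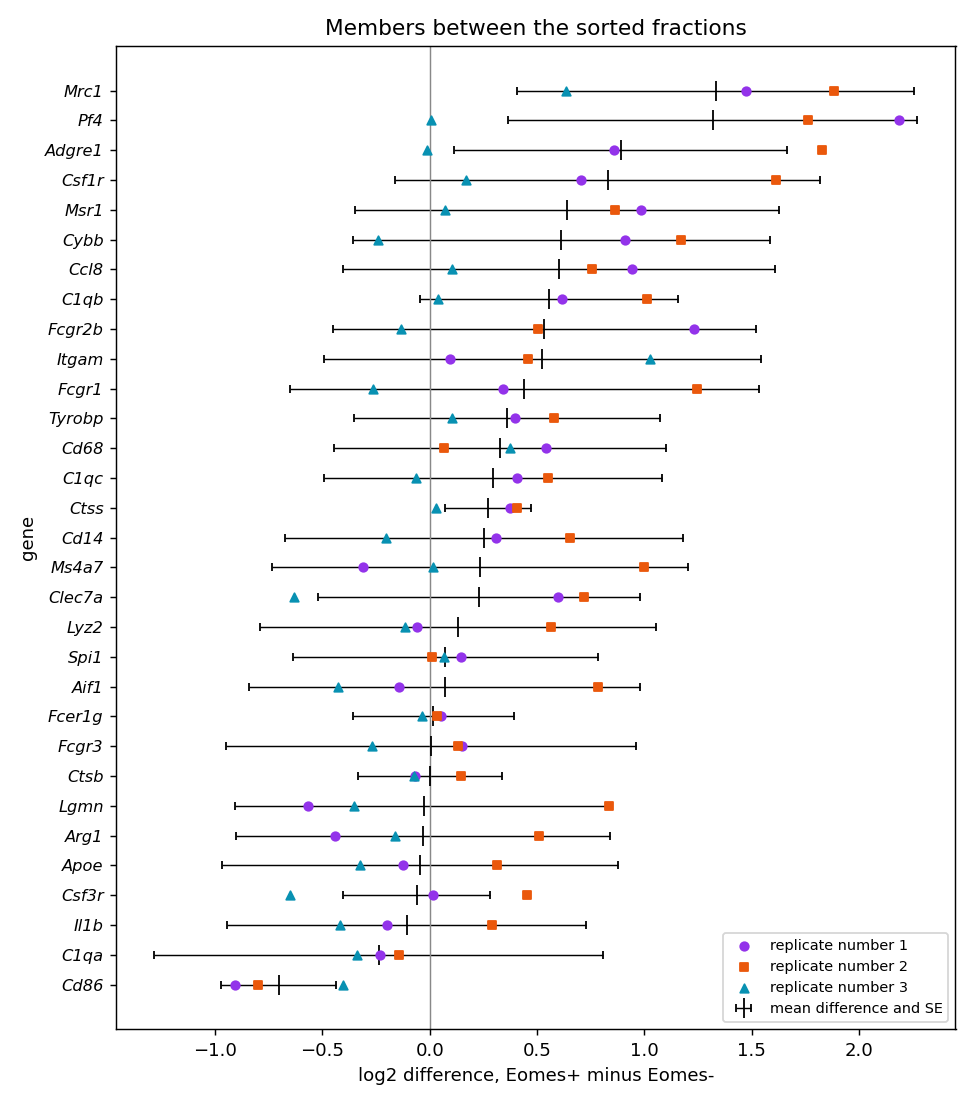
Log2 difference between Eomes+ and Eomes- (x axis) for each member (y axis), as the mean with its SE in black and as the difference between the arrays of each replicate number in colour. The mean differences run from -0.70 (Cd86) to 1.33 (Mrc1), and the differences of number 2 lie above 0 for 29 of 31 members.

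The largest fraction differences on the higher side belonged to Mrc1, Pf4, Adgre1 and Csf1r, and none passed. Mrc1, the mannose receptor of tissue-resident and alternatively activated macrophages, read 7.68, 9.17 and 10.00 log2 in Eomes+ cells and 6.20, 7.28 and 9.36 in Eomes- cells. Each Eomes+ array lay above the Eomes- array of its number, yet the fractions overlapped, at 8.95 ± 1.18 against 7.62 ± 1.61 (SD, n = 3 each; difference 1.33, SE 0.92, limma adjusted p = 1.00). Pf4 differed by 1.32 log2 (SE 0.95), Adgre1 by 0.89 (SE 0.78) and Csf1r by 0.83 (SE 0.99). The other Csf1r probe sets differed by 0.72 and -0.08 log2 between the fractions, so the sign of that gene depends on the probe set. No member had all Eomes+ arrays above all Eomes- arrays (0 of 31, against 3.05% of all genes).

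Cd86 encodes a ligand of CD28 and CTLA-4 on antigen-presenting cells, and was the member with the lowest difference in each comparison. It read 8.31, 8.86 and 9.03 log2 in Eomes+ cells and 9.22, 9.66 and 9.43 in Eomes- cells. All Eomes- arrays lay above all Eomes+ arrays, as for 1 of 31 members and 4.66% of all genes, a share near the background. The difference was -0.70 log2 (SE 0.27; limma adjusted p = 1.00, unadjusted p = 0.0368), and the other Cd86 probe set differed by -0.61 log2. Between array numbers Cd86 did not pass (0.46 log2, SE 0.25; adjusted p = 0.231). With the arrays centred on T cell genes instead, Cd86 and Csf3r were higher on number 3 by 1.77 and 1.91 log2 and passed (adjusted p = 0.00112 and 0.00356), a scaling that moves the median of all genes by 1.31 log2.

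Within the arrays of 1 number, the fractions stood differently each time. Among number 1 arrays 21 of 31 members were higher in Eomes+ (48.8% of all genes; member median 0.31 log2), among number 2 arrays 29 of 31 (48.0%; 0.57 log2), and among number 3 arrays 12 of 31 (47.3%; -0.07 log2). A total of 11 members were higher in Eomes+ at every number, among them Mrc1, Csf1r and Spi1 (14.0% of all genes), and 2 were lower at every number, Cd86 and C1qa (17.3%). These differences each compare 2 arrays and have no replicate check.

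Genes of other cells moved with the array number beside the members. Of 20 listed tumour and fibroblast genes 18 were tested. On number 3, 18 of 18 were higher than on number 1 (45.7% of all genes) and 18 passed (14.5%), with a median of 2.96 log2. They averaged 8.92, 10.88 and 11.70 log2 in Eomes+ samples 1, 2 and 3, against 8.73, 9.98 and 11.86 in Eomes- samples. Of 16 listed T cell genes 13 were tested. T cell genes were lower on number 3 in 13 of 13, and 13 passed as lower (10.6% of all genes). Their median was -1.30 log2, with means of 11.87, 11.67 and 10.57 against 12.01, 12.01 and 10.69. On number 2 the tumour and fibroblast genes were also higher in Eomes+ in 18 of 18 (48.0% of all genes), with a median of 0.84 log2, beside 29 of 31 members. The part of these signals in the members' values was not tested.

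**Figure D4:**
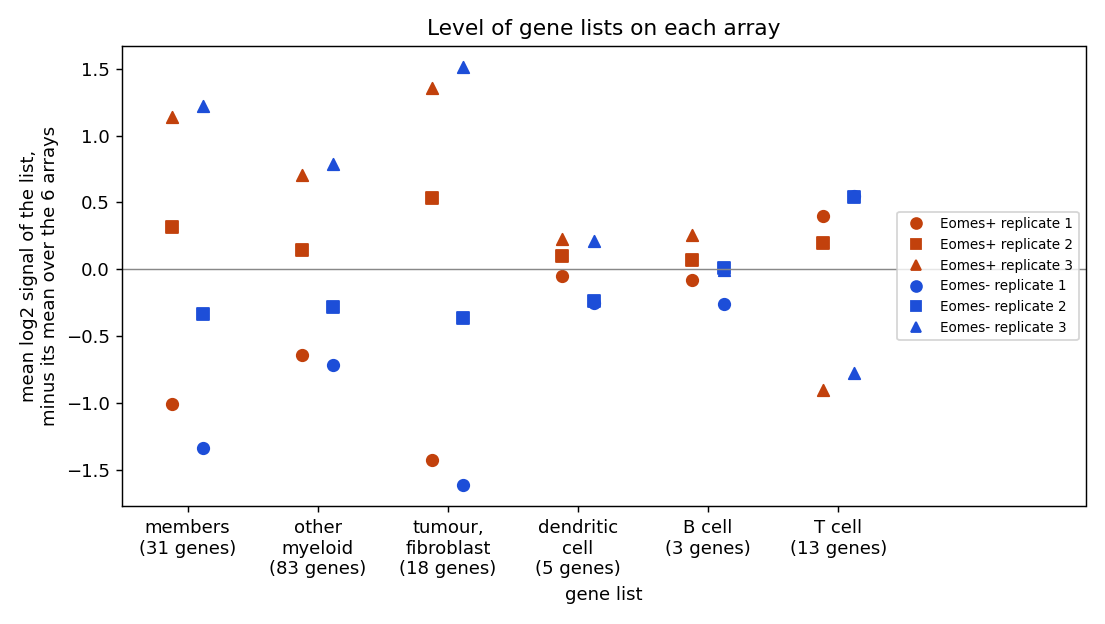
Mean log2 signal of 6 gene lists on each array minus the list's mean over the 6 arrays (y axis), with fractions as colours and replicate numbers as shapes. The members, the other myeloid genes and the tumour and fibroblast genes are highest on both number 3 arrays, where the T cell genes are lowest. The dendritic cell genes are also highest there, by less. Before centring they average 7.75 and 7.74 log2, against 7.27 to 7.63 on the other arrays.

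Further myeloid genes, from 7 lists that do not overlap the members, were read on the same arrays. Of 100 such genes 83 were tested, and 72 of these were higher on number 3 than on number 1 (45.7% of all genes), with a median of 1.45 log2. At a limma adjusted p under 0.05, 55 passed as higher (14.5% of all genes) and 2 as lower (10.6%). By list, higher calls were made for 9 of 12 phagocytosis and scavenger receptor genes, 13 of 15 lysosomal genes, 10 of 16 pattern receptor genes and 9 of 12 myeloid chemokine and cytokine genes. They were made for 5 of 8 myeloid transcription factors, 8 of 14 genes of monocyte and macrophage states and 1 of 6 oxidase and kinase genes. The 2 genes that passed as lower, Itgb2 (-0.62 log2), the CD18 chain that pairs with CD11b and with the LFA-1 chain of T cells, and Ncf4 (-0.89 log2), an oxidase subunit gene, are named after their values were seen. Between the fractions 0 of the 83 passed (0.00% of all genes; 1 at an unadjusted p under 0.05), with a median of 0.12 log2.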

How the data were processed

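RNA of the 6 sorted samples was read on Affymetrix mouse expression arrays. The deposited table holds log2 values that the authors had already normalized. The submitters' processing notes name MAS5 and Transcriptome Analysis Console, without their roles, and the scale constants are not given in the sources used here.

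Probe sets with 1 gene symbol in the platform annotation were kept, the brightest per gene was used, and a gene was tested where at least 3 arrays read above their own 40th percentile (12571 genes). limma 3.58.1 in R 4.3.3 (lmFit, eBayes with intensity trend) fitted the fraction alone, and the array number with the fraction as a term. P-values are two-sided and Benjamini-Hochberg adjusted over all genes, at a threshold of 0.05. The number fit has 2 residual degrees of freedom before moderation. A total of 22 alternatives were run, and the scripts were checked on simulated data. The simulated fraction comparison held no differences between array numbers, so it does not show what the fraction fit could detect here.

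All members are named whatever their values. Outside them, genes are named as checks, as at most 3 of smallest p per list, or as stated. The members and lists were chosen with earlier results of these data known. Replicate numbers were not treated as pairs, because the labels tie no number to a mouse or experiment.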

Additional observations from a re-analysis of the deposited data

How the results depend on the processing

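In the comparison of fractions, 0 of 31 members passed in any of the 21 alternatives. The median fraction difference of 0.25 log2 ranged from -0.31 to 0.96 when single arrays were left out, turning negative without Eomes+ replicate 3 (-0.24) and without Eomes- replicate 1 (-0.31). Members with a higher mean in Eomes+ ranged from 6 to 30. Over the 21 alternatives, 24 members changed the sign of their fraction difference at least once and 7 never did. Leaving out a single array makes the array numbers unequal between the fractions. Shifts in those fits therefore cannot be told apart from the differences between numbers. With the replicate number as a block, 0 members and 17 of all genes passed, against 0 genes without it, and the members' median was again 0.25 log2. Same-numbered arrays correlated at 0.595, 0.0989 and 0.628 in their deviations from the fraction means, and not every array correlated best with its own number. Array weights gave 253 genes and 0 members.

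Members called by array number ranged from 10 (without replicate 3) to 29 when arrays were left out, with 19 without replicate 1. Those fits compare only the remaining pair of numbers. Centring on T cell genes moved the median between numbers 3 and 1 from 2.65 to 3.96 log2 and the median of all genes by 1.31 log2, so the members' median minus that of all genes was 2.71 log2 under both. Of 588 differences between numbers 3 and 1, 575 kept their direction and their side of the threshold, 11 in 4 genes lost the call, 2 gained it and 0 reversed.

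Calls among all genes moved more. By F test 2409 genes passed, against 10171 with centring on T cell genes, 3761 with all probe sets, 1432 without the trend, 1298 without Eomes+ replicate 1, 1300 without Eomes- replicate 3, 1098 without replicate 1 and 135 without replicate 3. Between numbers 3 and 1 it was 3162, against 10243 with that centring, 5231 with all probe sets, and 1363, 2040 and 2008 without Eomes+ replicate 1, Eomes- replicate 1 and Eomes- replicate 3. The cause was not tested.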

Other observations

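Genes of other cells that a sort from tumour could hold differed among themselves. Of the neutrophil genes, 5 of 13 were tested 4 were higher on number 3 than on number 1 (45.7% of all genes) and 2 passed (14.5%). They were S100a8 (3.55 log2, SE 0.59; limma adjusted p = 0.0051) and S100a9 (3.43 log2, SE 0.47; adjusted p = 0.0025), which encode the subunits of calprotectin, a protein that monocytes make as well. Trem1, a receptor of neutrophils and monocytes, did not pass (1.49 log2, SE 0.48; adjusted p = 0.0621). Of the endothelial genes, 3 of 5 were tested, 3 were higher and 2 passed, Cdh5, the endothelial cadherin (2.93 log2, SE 0.30), and Emcn, a sialomucin of vessels (2.18 log2, SE 0.29). Of the NK cell genes, 1 of 4 was tested, the lectin receptor gene Klre1, and it passed as lower on number 3 (-1.68 log2, SE 0.21; adjusted p = 0.00166), as 10.6% of all genes did. Among 5 tested dendritic cell genes and 3 tested B cell genes, 0 passed in either direction, with medians of 0.07 and 0.04 log2.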
